A study of Mus musculus with 12 samples.

Results

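The 9 genes described here, Eif2ak3, Ern1, Atf6, Atf4, Ddit3, Xbp1, Trib3, Sesn2 and Herpud1, belong to the unfolded protein response and the integrated stress response. They were taken by gene symbol from the 33024 symbols of a mouse cortex count table, and the rule that selects them uses no measured value. All 9 were found, and all 9 were abundant enough to be tested.

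When unfolded proteins build up in the endoplasmic reticulum (ER), sensors in its membrane signal to the nucleus. PERK, the product of Eif2ak3, phosphorylates the translation factor eIF2 and thereby favours translation of ATF4. IRE1, the product of Ern1, splices Xbp1 mRNA. ATF6 moves to the Golgi, where it is cut to release a transcription factor. The integrated stress response joins PERK with other eIF2 kinases, which respond to amino acid shortage, viral RNA or haem deficiency, and all of them act through ATF4. In the brain these pathways are known for their part in protein homeostasis, synaptic plasticity and neurodegeneration.

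Bulk RNA sequencing was performed on cortex tissue of 12 C57BL/6 mice, 7 of the Control group (treatment label Vehicle) and 5 of the EtOH group. Control mice drank from bottles that all held water, whereas EtOH mice chose between water and 20% (v/v) ethanol in a voluntary binge-like drinking paradigm (2BC-DID), from 30 days of age and over 35 nightly sessions. All mice then stayed abstinent for 14 days, went through behavioural tests and were perfused with saline before the cortex was taken. The labels give the strain alone, with no transgene. The sex of the mice and any shared cage or litter are not given in the sources used here, and neither is the ethanol intake of each sequenced mouse, which was voluntary. The comparison of EtOH with Control asks which transcript levels differed after the abstinence period.

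Total counts ranged from 31768079 to 42183031 per mouse. Control 5 and EtOH 1 were sequenced more deeply than the other mice. The tissue was checked against marker genes of the cortex, whose summed level was 2430 to 2950 CPM (read counts relative to library size, with TMM scaling) in Control and 2310 to 2900 CPM in EtOH mice. Most of this sum came from Slc17a7 (named after its values were seen), with a mean of 1960 CPM in Control and 1910 CPM in EtOH mice. The sum therefore says little about the other cortex markers. Markers of other brain regions and of cell types differed between the groups by edgeR adjusted p, which 12.1% of all genes tested passed as higher and 11.6% as lower. All 11 striatal markers were lower in EtOH mice (summed level 1300 to 2940 CPM in Control, 379 to 484 CPM in EtOH). Of 8 hippocampal markers, 7 were higher in EtOH mice (44.9 to 70.2 CPM in Control, 152 to 192 CPM in EtOH). Of 4 tested choroid plexus markers, 3 were higher, with a sum of 7.34 to 21 CPM in Control and 10.9 to 985 CPM in EtOH mice. All 5 oligodendrocyte markers were lower, with a sum of 4050 to 5410 CPM in Control and 2690 to 4840 CPM in EtOH mice. Of 8 cortex markers, 3 were higher and 2 lower. Of 5 astrocyte markers, 3 were higher (791 to 889 CPM in Control, 960 to 1060 CPM in EtOH). Lower were 2 of 4 neuronal markers (4450 to 5350 and 4320 to 4850 CPM), 2 of 5 microglial markers (196 to 217 and 173 to 194 CPM) and 1 of 4 endothelial markers (138 to 158 and 130 to 147 CPM), while none of 5 blood markers passed. No marker was at 0 in any mouse. These marker differences run along with every group difference reported below, and their part in those differences was not tested.

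Genes were called when the adjusted p was under 0.05 (quasi-likelihood test of edgeR, Benjamini-Hochberg adjustment over 16059 genes) and the log2 fold change exceeded 0.5 in either direction. Of the 9 genes 1 was called, Trib3, which fell in EtOH mice. The same thresholds called 8.29% of all genes tested, 4.2% as higher and 4.09% as lower. With no fold change minimum, 3 of the 9 genes passed the adjusted p, as did 23.7% of all genes tested (12.1% higher and 11.6% lower). Ern1 rose, and Atf6 and Trib3 fell. Without Control 5 and EtOH 1 together the log2 fold changes were 0.43 for Ern1, -0.32 for Atf6 and -1.25 for Trib3. The other 6 genes, including Atf4, Ddit3 and Xbp1, did not pass. The median log2 fold change of the 9 genes was -0.08, beside 0 for all genes tested, and 6 of the 9 values were negative.

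**Figure D1:**
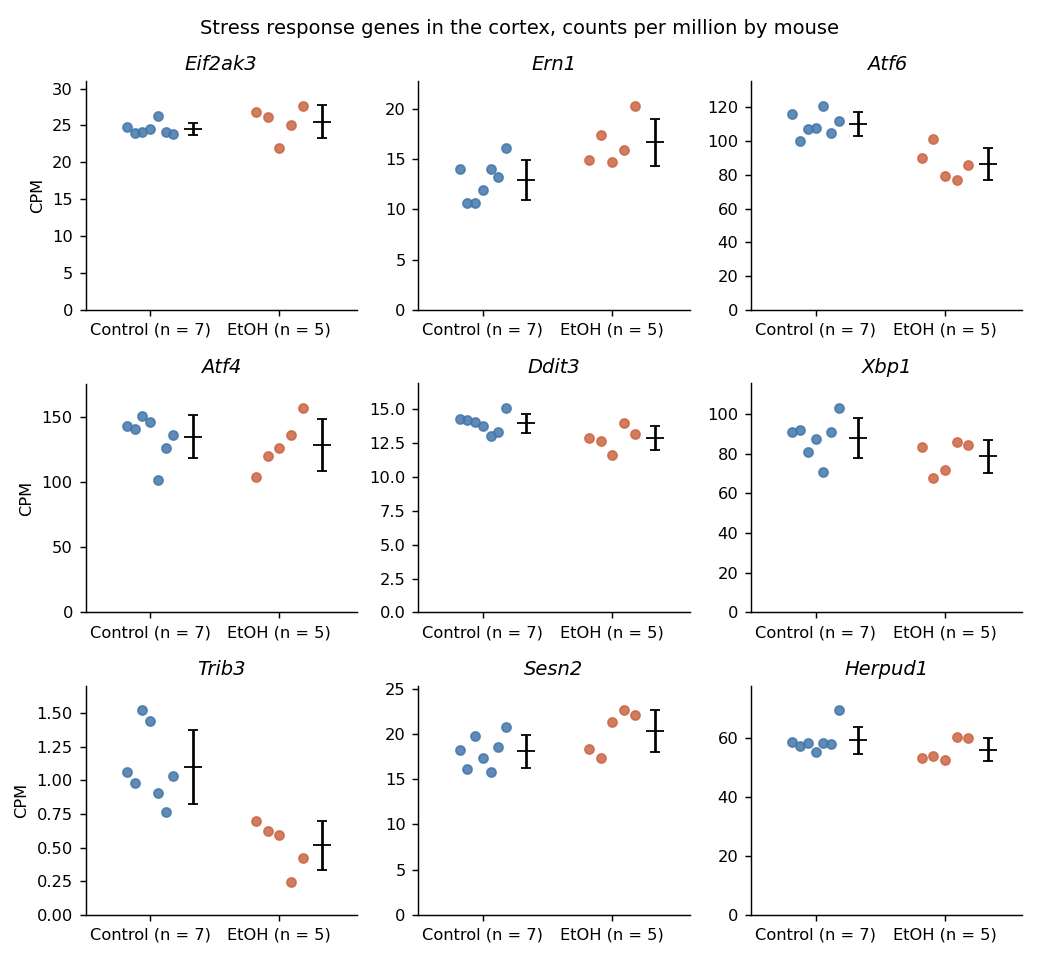
Level in CPM (y axis, starting at 0) of each gene in 7 Control and 5 EtOH mice, with 1 point per mouse and a bar for the mean ± SD. Only for Trib3 do the points of the groups not overlap, with every EtOH mouse at or below 0.695 CPM and every Control mouse at or above 0.765 CPM, while 4 of 5 EtOH mice lie below all Control mice for Atf6.

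Among the sensors, Eif2ak3 (chr6:70821461-70882235, plus strand; positions here are on GRCm39) had 23.9 CPM in the lowest, 24.1 in the median and 26.3 in the highest Control mouse. The EtOH mice had 26.8, 26.1, 22, 25 and 27.7 CPM. EtOH values lay both above and below the Control range, and they were more spread out. The log2 fold change of EtOH over Control was 0.06 (SE 0.06, 95% interval -0.07 to 0.19, edgeR adjusted p = 0.528), and it lay between 0.02 (without EtOH 5) and 0.11 (without EtOH 3) with each mouse left out in turn. The coefficient of variation of Eif2ak3 was 3.47% among Control and 8.56% among EtOH mice, beside medians of 10.7% and 9.87% over all genes tested.

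Ern1 (chr11:106283818-106378686, minus strand), which encodes the kinase and endoribonuclease IRE1, had 10.6 CPM in the lowest, 13.2 in the median and 16.1 in the highest Control mouse. The EtOH mice had 14.9, 17.4, 14.7, 15.9 and 20.3 CPM. All EtOH mice lay above the Control median, and 2 of 5 lay above the whole Control range, so the groups overlapped. The means were 12.9 ± 2.01 CPM (SD, n = 7) and 16.6 ± 2.33 CPM (SD, n = 5). On the log2 scale the difference was 0.36 (SE 0.11, 95% interval 0.13 to 0.60, edgeR adjusted p = 0.023). Ern1 therefore rose by 1.29-fold, which is under the fold change minimum. Without EtOH 5, the mouse with the highest level, the log2 fold change was 0.28 and the edgeR adjusted p was 0.0811, so the call at the adjusted p rests on that mouse.

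Atf6 (chr1:170532026-170696208, minus strand), which encodes the membrane-bound transcription factor, had 100 CPM in the lowest, 108 in the median and 121 in the highest Control mouse. In EtOH mice it had 89.7, 101, 79.5, 76.9 and 85.6 CPM. EtOH 2 lay just inside the Control range and the other 4 EtOH mice lay below it. The level fell from 110 ± 7.06 CPM (SD, n = 7) to 86.6 ± 9.7 CPM (SD, n = 5), or by a log2 difference of -0.34 (SE 0.07, 95% interval -0.49 to -0.20, edgeR adjusted p = 0.00161). This is 0.789 times the Control level, also under the fold change minimum. With each mouse left out in turn, the log2 fold change lay between -0.41 and -0.30, and all 12 fits passed the adjusted p. Thus the levels of the sensor genes did not move in one direction.

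IRE1 cuts Xbp1 mRNA at a pair of stem loops and removes a short intron in the cytoplasm, which shifts the reading frame to that of the active factor. This stretch of Xbp1 is shown because the active and inactive forms of the mRNA differ in these 26 bases alone, in capitals, with 15 bases on either side, on the plus strand at chr11:5474264-5474319 of GRCm39, the intron itself being chr11:5474279-5474304.
Xbp1 IRE1 intron: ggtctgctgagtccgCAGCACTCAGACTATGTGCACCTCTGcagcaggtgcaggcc
The stretch was located by its loops (CNGCAGN, at both ends), of which the exons of Xbp1 hold 2 pairs at this distance, and the pair shown is the one known for IRE1. Counts per gene symbol cannot separate transcripts with and without these bases. The values of Xbp1 are therefore those of the total transcript.

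Xbp1 (chr11:5470606-5483027, plus strand) had 70.9 CPM in the lowest, 90.7 in the median and 103 in the highest Control mouse, and 83.4, 67.7, 71.9, 86 and 84.3 CPM in EtOH mice. All EtOH mice lay below the Control median, and all but 1 lay within the Control range. The log2 fold change was -0.16 (SE 0.08, 95% interval -0.34 to 0.01, edgeR adjusted p = 0.17). Control 5, with the lowest Control level, decides the side of the threshold, since without it the log2 fold change was -0.22 with an edgeR adjusted p of 0.0344. Without Control 5 and EtOH 1 together it was -0.22 with an edgeR adjusted p of 0.0509. Of the exon bases of Xbp1, 22% overlap those of Ccdc117, and whether the counting used the strand of reads is not given in the sources used here.

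Atf4 (chr15:80139372-80141745, plus strand), the transcription factor shared by all eIF2 kinases, had 102 CPM in the lowest, 141 in the median and 151 in the highest Control mouse. The EtOH mice had 104, 120, 126, 136 and 157 CPM. The groups covered much the same range, with the lowest Control and the lowest EtOH value both in the deeply sequenced mice. The means were 135 ± 16.5 CPM (SD, n = 7) and 128 ± 19.6 CPM (SD, n = 5), and the log2 fold change was -0.07 (SE 0.10, 95% interval -0.28 to 0.13, edgeR adjusted p = 0.634). Without EtOH 1 the log2 fold change was 0. ATF4 is largely controlled at translation, which these transcript counts do not measure.

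Ddit3 (chr10:127124268-127132163, plus strand) encodes CHOP, a transcription factor induced by ATF4 that is known for promoting cell death. Its level was 13 CPM in the lowest, 14.1 in the median and 15.1 in the highest Control mouse, and 12.9, 12.7, 11.6, 14 and 13.2 CPM in EtOH mice. A majority of EtOH mice, 3 of 5, lay below all Control mice, though by little. The means were 14 ± 0.709 CPM (SD, n = 7) and 12.9 ± 0.864 CPM (SD, n = 5), and the log2 fold change was -0.12 (SE 0.07, 95% interval -0.26 to 0.03, edgeR adjusted p = 0.227). The exons of Ddit3 overlap those of genes with other symbols (Mars1, Mbd6 and Gm4189) over 82.4% of their bases, and a second record of the same symbol lies among them, so its counts are uncertain.

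Trib3 (chr2:152179337-152191958, minus strand) encodes a pseudokinase that is induced by ATF4 and CHOP and restrains them in turn. It was the least abundant of the 9 genes, with raw counts of 24 to 48 per Control mouse. The EtOH mice had raw counts of 30, 20, 20, 8 and 14, all above the 3 counts taken as the floor for detection. In CPM the Control mice had 0.765 in the lowest, 1.03 in the median and 1.52 in the highest mouse, and the EtOH mice had 0.695, 0.622, 0.596, 0.243 and 0.426.
Every EtOH mouse lay below every Control mouse. Such a separation occurred in 9.81% of all genes tested, with EtOH higher in 4.84% and lower in 4.96%. The level fell from 1.1 ± 0.276 CPM (SD, n = 7) to 0.516 ± 0.182 CPM (SD, n = 5), which is 0.476 times the Control level. On the log2 scale this was -1.07 (SE 0.27, 95% interval -1.64 to -0.50, edgeR adjusted p = 0.00839). Of the 9 genes Trib3 also varied most within each group, with a coefficient of variation of 25.1% in Control and 35.3% in EtOH mice. Its raw counts were the lowest of the 9 genes, and how much of this variation is sampling noise was not tested. With each mouse left out in turn, Trib3 was called in all 12 fits, with log2 fold changes from -1.21 to -0.90 and edgeR adjusted p values up to 0.0248. Because the tissue was sequenced in bulk, fewer cells with Trib3 and less Trib3 RNA per cell cannot be told apart, and the same holds for every gene here.

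Sesn2 (chr4:132219335-132237815, minus strand) encodes sestrin 2, a stress-induced sensor of leucine that restrains the growth kinase mTORC1. It had 15.8 CPM in the lowest, 18.2 in the median and 20.8 in the highest Control mouse, and 18.3, 17.4, 21.3, 22.6 and 22.1 CPM in EtOH mice. Of the EtOH mice, 3 of 5 lay above the Control range and the remaining pair within it. The log2 fold change was 0.17 (SE 0.09, 95% interval -0.01 to 0.35, edgeR adjusted p = 0.167).

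Herpud1 (chr8:95113022-95123141, plus strand) encodes a membrane protein of ER-associated degradation, the route by which misfolded proteins are returned to the cytoplasm and destroyed. Its level was 55.1 CPM in the lowest, 58.3 in the median and 69.3 in the highest Control mouse, and 53.2, 54, 52.4, 60.4 and 60.1 CPM in EtOH mice. Control 7 stood above the other Control mice, and 3 of 5 EtOH mice lay below all of them. The log2 fold change was -0.08 (SE 0.06, 95% interval -0.21 to 0.05, edgeR adjusted p = 0.362). Without Control 7 it was closer to 0, at -0.04.

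**Figure D2:**
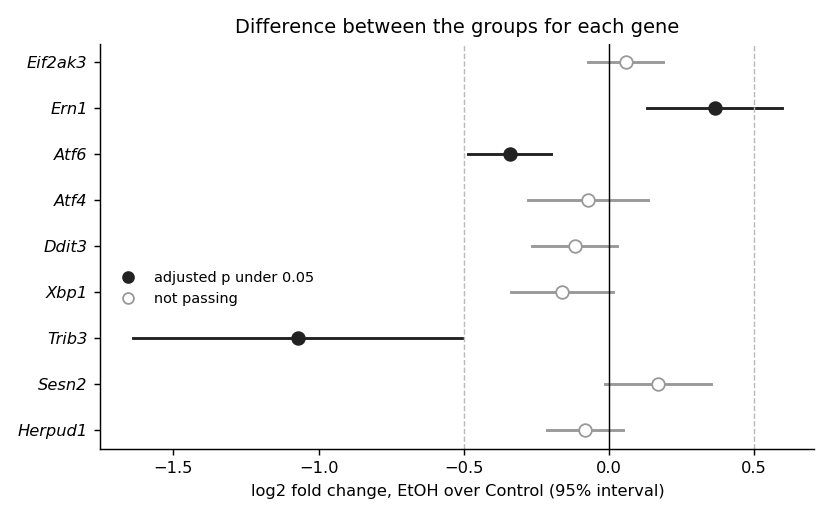
Log2 fold change of EtOH over Control (x axis) for each of the 9 genes, with 95% intervals as lines, filled points for an edgeR adjusted p under 0.05 and dashed lines at the fold change minimum of 0.5 in either direction. Trib3 lies at -1.07, Atf6 at -0.34 and Ern1 at 0.36, and the intervals of the other 6 genes include 0.

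Per length of transcript, Atf4 was the most abundant of the 9 genes in Control mice, at 77.5 ± 9.48 RPKM (CPM per kilobase of the canonical transcript, SD, n = 7). Xbp1 followed with 44.7 ± 5.13 RPKM and Herpud1 with 19 ± 1.47 RPKM. Atf6 (14.6 RPKM) and Ddit3 (14.3 RPKM) overlapped between mice, as did Eif2ak3 (5.38 RPKM) and Sesn2 (5.19 RPKM). Ern1 lay lower, at 1.84 ± 0.287 RPKM, and Trib3 was last, at 0.526 ± 0.132 RPKM. The order between these ends depends on which length is taken. Divided by all annotated exon bases, Xbp1 (12.7 RPKM) came after Herpud1 (15.3 RPKM) and Ddit3 (2.51 RPKM) after Sesn2 (3.99 RPKM) and Eif2ak3 (3.86 RPKM), while Atf4 stayed first with 56.9 RPKM and Trib3 last with 0.325 RPKM.

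The genes whose levels varied most like those of each of the 9 were sought by Pearson's r of log2 CPM over 12 mice after the mean of each group was subtracted. Atf4 varied most like Ube2ql1 (r = 0.95) and Pdlim7 (r = 0.94), Xbp1 like Fmnl1 and Mlec (both r = 0.91), and Ddit3 like Msto1 and Mapk11 (both r = 0.88). Atf6 varied most like Slc16a7 (r = 0.95) and Scn1a (r = 0.94), and Ern1 like Elk4 and Igsf9b (both r = 0.93). For Trib3 the closest genes were Ccdc47 (r = 0.94) and Tmeff1 (r = 0.89), for Sesn2 they were Tmem145 (r = 0.94) and Acap3 (r = 0.93), and for Herpud1 they were Lzts2 (r = 0.93) and Sh3gl1 (r = 0.91). None of the 9 genes had another of them among its closest pair. These values are the highest of 16059 genes and serve as a description. The mice differed in library depth and in the levels of region and cell type markers, whose part in these values was not tested.

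Around these 9 genes, 98 further genes of both responses were listed in 6 groups, and 96 of them could be tested. Fgf21 and Gdf15, which encode stress hormones induced by ATF4 and CHOP, were too low, with at most 0.122 and 0.276 CPM in any mouse, and were named after their values were seen. At both thresholds 1 of the 96 genes was called higher and 1 lower, beside 8.29% of all genes tested in both directions. By adjusted p alone (edgeR), 2 were higher and 7 lower, which is 9 of 96 genes beside 23.7% of all genes tested. The median log2 fold change of the 96 genes was -0.04 and 60.4% were negative, beside 0 and 50% for all genes tested.

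**Figure D3:**
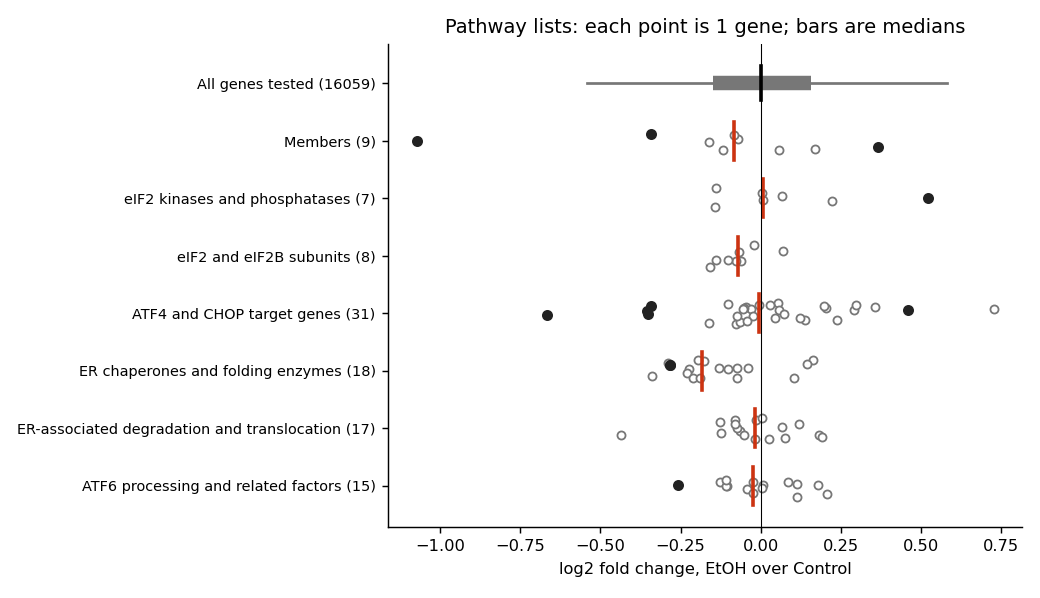
Log2 fold change of EtOH over Control (x axis) for every tested gene of each list (1 point per gene, filled at an edgeR adjusted p under 0.05), with the list's median as a red bar. For all 16059 genes tested, the box spans the interquartile range and the line the 5th to the 95th percentile. The ER chaperones have the lowest median of the 6 groups, -0.18, and most points of every list lie inside the range of all genes.

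Of 7 eIF2 kinases and phosphatase factors, 1 rose by adjusted p, beside 12.1% of all genes tested, and the median log2 fold change was 0.01. Eif2ak4 encodes GCN2, the kinase that senses uncharged tRNA in amino acid shortage. It had 18.8 CPM in the lowest, 22 in the median and 26.4 in the highest Control mouse, and 32, 30.2, 34.7, 32.6 and 31.6 CPM in EtOH mice. The groups did not overlap, and the log2 fold change was 0.52 (SE 0.08, 95% interval 0.36 to 0.69, edgeR adjusted p = 0.000123). Because this value lies near the fold change minimum, Eif2ak4 was not called without Control 2, Control 4 or EtOH 3, while its adjusted p stayed under 0.05 in all 12 fits with 1 mouse left out and its log2 fold change between 0.48 and 0.56. The kinases that sense haem and double-stranded RNA, Eif2ak1 (log2 fold change -0.14, edgeR adjusted p = 0.0902) and Eif2ak2 (0.22, edgeR adjusted p = 0.158), did not pass. The exons of Eif2ak1 overlap those of Aimp2 and Ankrd61 over 28.6% of their bases. Differences between the changes of the kinases were not tested.

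None of the 8 genes for subunits of eIF2 and of its exchange factor eIF2B passed the edgeR test after adjustment, while 2 had an unadjusted p under 0.05, as did 36.5% of all genes tested. The median log2 fold change was -0.07 and 7 values were negative. The smallest p values belonged to Eif2b2 (-0.16, edgeR adjusted p = 0.103), Eif2b5 (-0.14, edgeR adjusted p = 0.107) and Eif2b4 (-0.10, edgeR adjusted p = 0.211).

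Of 31 tested target genes of ATF4 and CHOP, 1 rose and 4 fell by adjusted p, beside 12.1% and 11.6% of all genes tested, and the median log2 fold change was 0. Nupr1, a small stress-induced chromatin protein, had 3.71 CPM in the lowest, 4.72 in the median and 6.31 in the highest Control mouse, and 3.62, 3.33, 3.49, 2.06 and 3.28 CPM in EtOH mice. The groups did not overlap. Nupr1 was called, with a log2 fold change of -0.66 (SE 0.16, 95% interval -1.01 to -0.32, edgeR adjusted p = 0.00674), and remained called in all 12 fits with 1 mouse left out. Of the exon bases of Nupr1, 21.8% overlap those of Gm39087.
Psat1, an enzyme of serine synthesis, fell from 109 ± 4.16 CPM (SD, n = 7) to 85.6 ± 5.8 CPM (SD, n = 5), with no overlap and a log2 fold change of -0.35 (SE 0.05, edgeR adjusted p = 0.000111). Slc7a11, the cystine transporter that supplies glutathione synthesis, rose from 35.4 ± 3.92 to 48.7 ± 7.91 CPM, with 4 of 5 EtOH mice above all Control mice and a log2 fold change of 0.46 (SE 0.10, edgeR adjusted p = 0.00251). It lies just under the fold change minimum and was called without Control 6 (0.51) and without EtOH 2 (0.54). The other genes that fell were Atf5, a transcription factor related to Atf4 (-0.34, edgeR adjusted p = 0.00906), and Chac1, which degrades glutathione (-0.35, edgeR adjusted p = 0.0494). These last genes were named after their values were seen. Chac1 lies at the threshold and passed in 2 of 12 fits with 1 mouse left out, and it did not pass with limma voom (adjusted p = 0.0756), with relative log expression factors (edgeR adjusted p = 0.0508) or with no filter (edgeR adjusted p = 0.0547). Serine synthesis and tRNA charging were represented by further members that did not pass, such as Phgdh (-0.05) and Aars (-0.07), also named after their values were seen.

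The lowest median of the 6 groups, -0.18, belonged to the ER chaperones and folding enzymes, of which 15 of 18 had a negative log2 fold change. By edgeR adjusted p 2 of 18 fell and none rose, beside 23.7% of all genes tested, and 9 had an unadjusted p under 0.05, beside 36.5% of all genes tested. P4hb, a protein disulphide isomerase, had 93 to 107 CPM in Control mice and 79.9, 77.2, 82.7, 84 and 83.3 CPM in EtOH mice. The groups did not overlap, and the log2 fold change was -0.28 (SE 0.05, 95% interval -0.39 to -0.18, edgeR adjusted p = 0.000746). Of the exon bases of P4hb, 21.2% overlap those of Gm57341. Pdia6, a related isomerase, had 63.3 to 92.4 CPM in Control and 56.2 to 76.7 CPM in EtOH mice, and its log2 fold change of -0.28 (SE 0.10) passed narrowly with an edgeR adjusted p of 0.0489. It did not pass with limma voom (adjusted p = 0.0597) or with relative log expression factors (edgeR adjusted p = 0.0506) and passed in 3 of 12 fits with 1 mouse left out. Ero1b, an oxidase of the same folding machinery, had the opposite sign (0.16, edgeR adjusted p = 0.0602).
Hspa5 encodes BiP, the main chaperone of the ER lumen, and was named after its values were seen. It had 138 CPM in the lowest, 209 in the median and 245 in the highest Control mouse, and 184, 126, 142, 165 and 159 CPM in EtOH mice. Of the exon bases of Hspa5, 44.2% overlap those of Rabepk, so its counts are uncertain while the strand setting of the counting is not known. The Control mice were widely spread, with Control 3, Control 5 and Control 6 among the EtOH values, and the log2 fold change of -0.34 (SE 0.13, 95% interval -0.62 to -0.06) did not pass (edgeR adjusted p = 0.0725). Hspa5 passed without Control 5 (-0.42, edgeR adjusted p = 0.014), without Control 6 (-0.40, edgeR adjusted p = 0.0314) and without both deeply sequenced mice (-0.47, edgeR adjusted p = 0.0118), and in none of the other 10 fits with 1 mouse left out. The mean of the 18 genes, as log2 CPM relative to the Control mean, lay between -0.20 and 0.14 in Control mice and between -0.23 and -0.03 in EtOH mice. The groups overlapped in this mean, with Control 3 (-0.08), Control 5 (-0.20) and Control 6 (-0.15) inside the range of the EtOH mice.

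**Figure D4:**
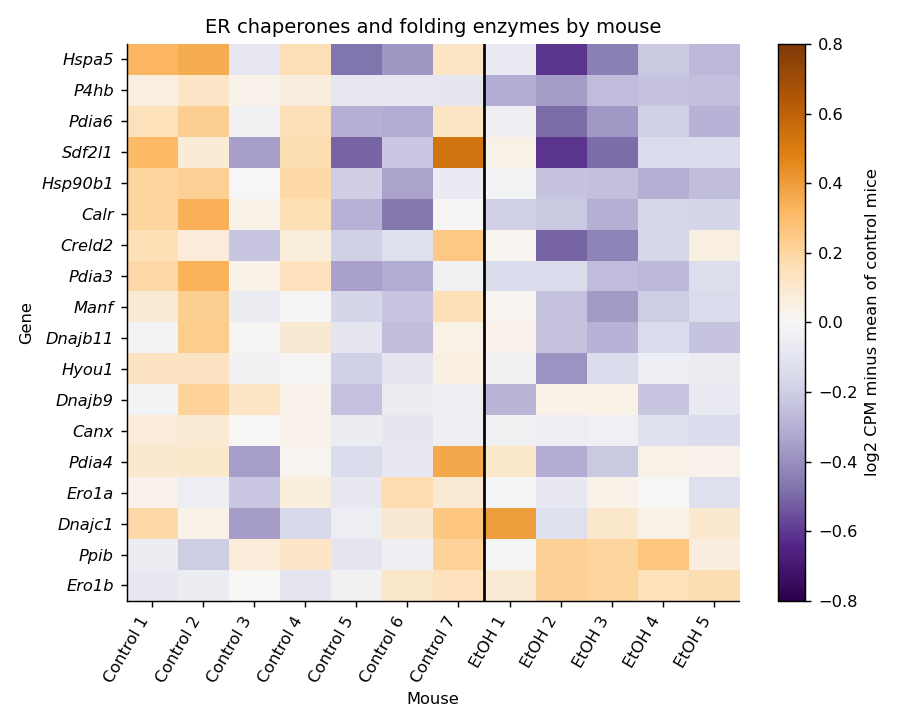
Log2 CPM minus the mean of the Control mice (colour, from -0.8 to 0.8) for 18 ER chaperone and folding genes (rows) in 7 Control and 5 EtOH mice (columns, separated by a line). Purple cells of low level fill most of the EtOH columns but also those of Control 5 and Control 6, and P4hb is low in every EtOH mouse.

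Of 17 genes of ER-associated degradation and translocation, the pathway to which Herpud1 belongs, none passed the edgeR test after adjustment, while 4 had an unadjusted p under 0.05 (36.5% of all genes tested did), and the median log2 fold change was -0.02. Edem3, which trims the sugars of misfolded glycoproteins, had a log2 difference of 0.19 (edgeR adjusted p = 0.0661). Os9, a lectin that delivers them to the degradation complex, differed by -0.12 (edgeR adjusted p = 0.104). Nploc4, a cofactor of the extracting ATPase, differed by 0.12 (edgeR adjusted p = 0.121).

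Of 15 genes for ATF6 processing and related factors, 1 fell by adjusted p, beside 11.6% of all genes tested, and the median was -0.02. Nfya, a subunit of the CCAAT-binding factor NF-Y that binds next to ATF6, differed by -0.26 (log2, edgeR adjusted p = 0.0421) and passed in 5 of 12 fits with 1 mouse left out, and not with no filter (edgeR adjusted p = 0.0503). Creb3l2, a membrane-bound relative of ATF6, differed by 0.18 (edgeR adjusted p = 0.0988), and Tmbim6, an ER membrane protein that restrains IRE1, one of -0.11 (edgeR adjusted p = 0.171). The proteases that cut ATF6, Mbtps1 (-0.04) and Mbtps2 (0.11), did not pass and were named after their values were seen.

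Promoters of these genes were examined because the factors bind known elements in them. RefSeq promoter sequences (GRCm38.p6) were found for 8 of the 9 genes (not for Atf6) and for 82 of the 98 listed genes. The 250 bases before each start were searched on both strands for the ER stress element ERSE (CCAAT and CCACG with any 9 bases between them), bound by NF-Y with ATF6 or XBP1, for ERSE-II (ATTGG and CCACG with any 1 base between them), for the ATF4 element CARE (TTGCATCA) and for the core of the unfolded protein response element UPRE (TGACGTG). Of 27025 genes with a promoter sequence, 0.13% held ERSE, 0.04% ERSE-II, 0.92% CARE and 1.85% the UPRE core. Elements farther from the start, or differing from these letters by a base, were not sought. Among the 9 genes only Herpud1 held a match, and it held 2 of the elements. They do not overlap each other: ERSE-II lies 52 to 42 bases and CARE 112 to 105 bases before the start. They are shown, elements in capitals, on the plus strand at chr8:94386357-94386407 and chr8:94386297-94386344.
Herpud1 ERSE-II: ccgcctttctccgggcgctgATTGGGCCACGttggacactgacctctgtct
Herpud1 CARE: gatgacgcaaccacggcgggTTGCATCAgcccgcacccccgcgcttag
The level of Herpud1, described above, did not pass the test.

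CARE was held by 8 of the listed genes, all of them in the list of ATF4 and CHOP targets. The windows of the 3 that passed the adjusted p are shown to set the same 8 bases beside opposite directions, on the strand of each gene: Nupr1 at chr7:126625553-126625600 (minus strand), Chac1 at chr2:119351029-119351076 (plus strand) and Slc7a11 at chr3:50443633-50443699 (minus strand), the last with a match on either strand.
Nupr1: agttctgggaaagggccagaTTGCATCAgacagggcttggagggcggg
Chac1: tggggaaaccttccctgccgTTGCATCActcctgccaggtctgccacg
Slc7a11: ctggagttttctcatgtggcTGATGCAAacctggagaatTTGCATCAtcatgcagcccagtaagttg
Nupr1 (-0.66) and Chac1 (-0.35) were lower in EtOH mice and Slc7a11 (0.46) was higher. Over the 8 tested genes of both responses that hold CARE, Herpud1 included, 5 values were negative and the median log2 fold change was -0.08, beside 0.03 for all 79 tested genes that hold it.

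ERSE was held by 10 of the listed genes, 7 of them ER chaperones or folding enzymes. The matches of Hspa5 (chr2:34772005-34772063, plus strand) and Pdia6 (chr12:17266471-17266529, plus strand), as the main chaperone and the holder that passed the adjusted p, are shown with that of Calr (chr8:84847055-84847113, minus strand), which encodes the chaperone calreticulin and holds the element in the opposite orientation.
Hspa5: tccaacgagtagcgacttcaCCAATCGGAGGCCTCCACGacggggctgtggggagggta
Pdia6: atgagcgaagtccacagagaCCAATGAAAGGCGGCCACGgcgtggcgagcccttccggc
Calr: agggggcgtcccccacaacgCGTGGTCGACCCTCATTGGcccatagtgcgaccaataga
The log2 fold changes were -0.34 for Hspa5, -0.28 for Pdia6 and -0.23 for Calr, the last with an edgeR adjusted p of 0.12 and named after its values were seen. Of the 10 listed genes with ERSE, 8 had a negative log2 fold change, with a median of -0.21. Over all 21 tested genes that hold ERSE the median was 0.01 and 9 values were negative. A match of letters is a description of the sequence and was not tested for binding.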

How the data were processed

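Total RNA of cortex tissue from 12 mice was extracted and sequenced by BGI (DNBSEQ). The authors checked reads with FastQC 0.11.9, ran STAR against GRCm39 with annotation from Gencode Release 28, counted reads with featureCounts and compared groups with DESeq2. They deposited 1 table of expected counts per gene symbol without normalization, in which 61 of 33024 symbols hold values that are not whole. Strand and multi-mapping settings are not given in the sources used here. Column names identified the mice, and groups come from the labels.

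Counts were rounded, filtered with filterByExpr (16059 genes left), scaled by TMM factors (0.982 to 1.02) and tested with edgeR 4.0.16's quasi-likelihood test in R 4.3.3, EtOH against Control, without covariates. P values were adjusted over all genes tested. Within a group, the counts of each of the 31 pairs of mice differed by more than sampling noise. At these depths 3 counts correspond to 0.0711 to 0.0944 CPM. P values weigh the difference between the groups against the spread between the mice. Alternatives were DESeq2 1.42.0, limma voom 3.58.1, relative log expression factors, no filter, no fold change minimum, the replicate number as a block, each mouse left out in turn and, chosen after seeing the data, both deeply sequenced mice left out. Scripts were tested on simulated data.

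Although the rule for the 9 genes uses no measured value, these genes, the lists, the markers and the motifs were chosen with earlier results of these data known. Named besides the 9 genes are listed genes that were called, the 3 with the smallest p in each list, and the 2 genes most like each of the 9, which are not reported here for Eif2ak3. Other names are marked as chosen after their values were seen. Positions, exon overlaps and transcript lengths are from Gencode M39 (GRCm39), promoters from RefSeq (GRCm38.p6).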

Additional observations from a re-analysis of the deposited data

Results flagged for a closer look

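Of 20 groups of values examined (total counts and the 9 genes, in Control and in EtOH mice), 4 held a mouse far from the others of its group by Dixon's test, where chance gives about 1. The total count was highest in Control 5 among Control mice, with 40690226 beside 32356909 in the next, and in EtOH 1 among EtOH mice, with 42183031 beside 33313165 in the next. Eif2ak3 was highest among Control mice in Control 5, with 26.3 CPM beside 24.8 CPM in the next. Herpud1 was highest among Control mice in Control 7, with 69.3 CPM beside 58.5 CPM in the next.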

How the results depend on the processing

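With no fold change minimum the calls rose from 1331 to 3810 over all genes, from 1 to 3 of the 9 genes and from 2 to 9 listed genes. DESeq2 (1390), limma voom (1319), relative log expression factors (1331), no filter on low counts (1432), the replicate block (1310) and leaving out both deeply sequenced mice (1438) kept the count over all genes within 1.5 times, and each called Trib3 alone among the 9. With each mouse left out in turn, 1162 to 1501 genes were called, with 1 to 3 listed genes and always 1 of the 9. Log2 fold changes then ranged from 0.28 to 0.42 for Ern1, from -0.22 to -0.12 for Xbp1 and from -0.16 to 0 for Atf4, whose sign turned without EtOH 1 at a value of 0 after rounding (edgeR adjusted p = 0.996). Same-numbered mice correlated at -0.1 to 0.06 over 5000 genes and each correlated better with another number, and the sources used here describe no pairing. With the replicate block, Trib3 had a log2 fold change of -1.19, Ern1 of 0.45 and Atf6 of -0.35, and 3 listed genes were called, Slc7a11 (0.51) besides Eif2ak4 and Nupr1. Hspa5 passed the adjusted p with the replicate block (-0.37, edgeR adjusted p = 0.0462). Of the 9 genes, Trib3 rests on the fewest counts, 8 to 48 per mouse.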
